A study of Mus musculus with 4 samples.

Results

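The genes described here are 10 anterior pituitary hormone genes and regulators, Prl, Gh, Pomc, Lhb, Tshb, Fshb, Cga, Pou1f1, Ghrhr and Pitx1. They were taken from the normalized array table by gene symbol and corresponded to 11 transcript clusters, since Cga has 2, out of 33793 clusters and 24515 gene symbols in all. A transcript cluster groups the probes of the array that read the same locus. The list had been chosen by the log2 signals of these same 4 arrays, compared array by array with Prl. The differences between genotypes are therefore given for these genes as a description, with no test. Coordinates of clusters are those of the table, which names no genome build.

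Total RNA of whole brains from adult female 129SV mice was measured on 4 Affymetrix whole-transcript arrays, 2 of wild-type and 2 of Adar2-/- animals. Adar2-/- mice lack ADAR2, encoded by Adarb1, which deaminates adenosines to inosines in double-stranded RNA. Animals of both genotypes were siblings from heterozygous crosses and were homozygous for a pre-edited Gria2 allele, without which the knockout is lethal, so that the wild-type group is wild type for Adarb1 only. The 4 arrays had median log2 signals between 6.03 and 6.09. Adarb1 itself had log2 signals of 10.50 and 10.45 in wild-type and of 9.16 and 8.96 in Adar2-/- brain.

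The anterior pituitary is an endocrine gland that hangs below the hypothalamus. Its cell types each secrete their own hormone. Lactotrophs make prolactin, somatotrophs growth hormone, corticotrophs the ACTH precursor, thyrotrophs TSH, and gonadotrophs LH and FSH. Hypothalamic releasing and inhibiting factors reach these cells through portal vessels, and the transcription factor POU1F1 (Pit-1) is needed for lactotrophs, somatotrophs and thyrotrophs. Apart from Pomc, which is also transcribed in neurons of the hypothalamic arcuate nucleus, and low levels of some others, these hormone genes are known for the pituitary and not for the brain.

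Prl and Gh were far higher in Adar2-/- than in wild-type brain, while the other members differed by at most 0.51 on the log2 scale. Of these others, all but Ghrhr had signals below the array medians of 6.03 to 6.09 on every array. Pou1f1 and the minus-strand Cga cluster lay no higher than the Y-chromosome genes in these female brains, which read up to 4.40. There a small difference does not show that a gene was unchanged. Prl (prolactin, chromosome 13, 27057570 to 27065204, plus strand, transcript cluster 17286107) had log2 signals of 6.55 and 4.99 on the wild-type arrays and of 10.11 and 9.66 on the Adar2-/- arrays. Both Adar2-/- arrays were above both wild-type arrays, and the lower Adar2-/- signal exceeded the higher wild-type signal by 3.11. The group means were 5.77 ± 1.10 (SD, n = 2) and 9.89 ± 0.32 (SD, n = 2). The difference of 4.12 corresponds to 17.3-fold and was the largest of all 33793 clusters. Its SE of 0.49 is from limma, which draws on the spread of all clusters and not on the SDs above alone. The wild-type signals lay on either side of the array medians of 6.03 to 6.09. Whether they were above background was not tested, and the fold depends on this. In RNA of a whole organ, more cells of a type and more RNA per cell cannot be told apart.

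Gh (growth hormone, chromosome 11, 106300268 to 106301865, minus strand, cluster 17270829) had log2 signals of 6.30 and 5.68 in wild-type and of 9.95 and 8.36 in Adar2-/- brain. Again the groups did not overlap, with a gap of 2.06 between the lower Adar2-/- and the higher wild-type signal. The means were 5.99 ± 0.44 (SD, n = 2) and 9.16 ± 1.12 (SD, n = 2), a difference of 3.17 (limma SE 0.51) or 8.97-fold, which ranked 4 by size among all clusters. As for Prl, the wild-type signals lay on either side of the array medians and were not tested against background.

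The size of both differences depended on which animals were set against each other. Prl was 34.8-fold higher in Adar2-/- replicate 1 than in wild-type replicate 2, but 8.63-fold higher in Adar2-/- replicate 2 than in wild-type replicate 1. For Gh the corresponding values were 19.3-fold and 4.17-fold. The wild-type replicate 2 signals in these ratios, 4.99 for Prl and 5.68 for Gh, were below the array medians. Whether they were above background was not tested. The spread lay in different places for the 2 hormones. Prl differed 2.95-fold between the wild-type arrays and 1.37-fold between the Adar2-/- arrays, whereas Gh differed 1.54-fold between the wild-type arrays and 3.01-fold between the Adar2-/- arrays. Against this, the median cluster differed by 0.13 on the log2 scale within either genotype. The wild-type gap of Gh was larger than that of 97.8% of all clusters and its Adar2-/- gap larger than that of 99.9%. In both genotypes replicate 1 had the higher signal for both hormones.

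**Figure D1:**
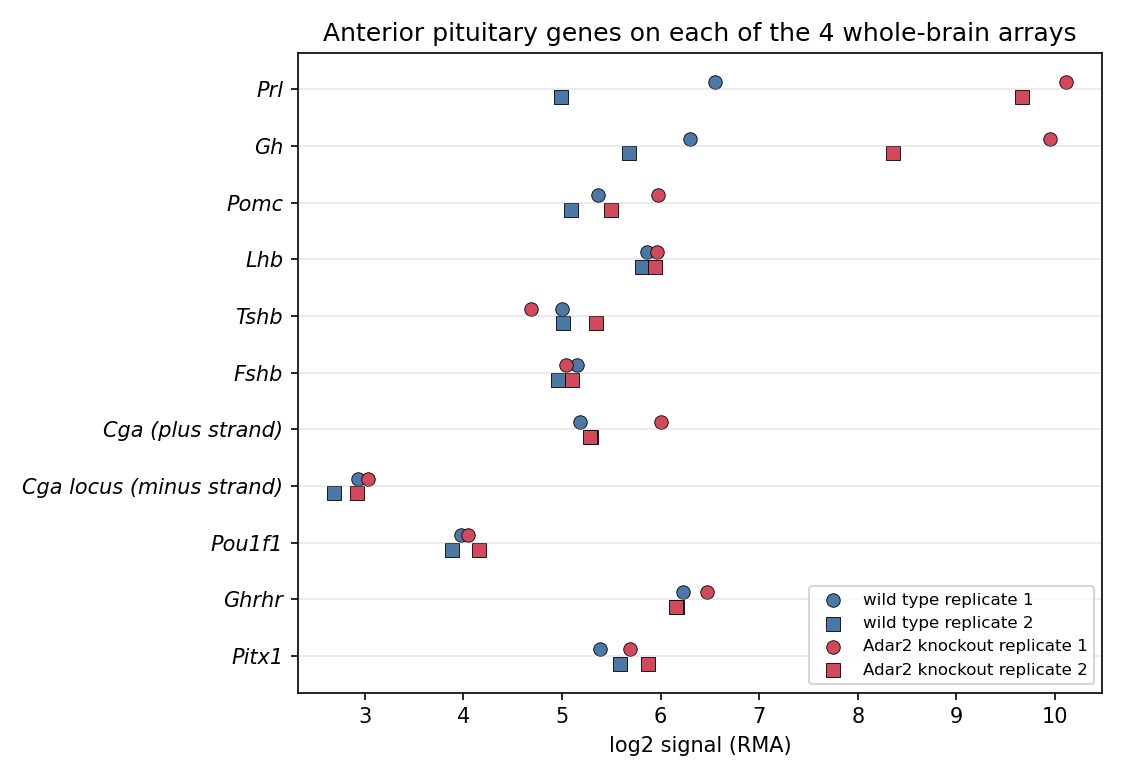
Log2 signal (x axis, RMA units) of the 11 transcript clusters of the 10 genes (y axis) on each array, with wild-type arrays in blue and Adar2-/- arrays in red, circles for replicate 1 and squares for replicate 2. For Prl and Gh the Adar2-/- arrays lie between 8.36 and 10.11, above all wild-type signals. For the other genes the 4 arrays span less, as for Pomc from 5.09 to 5.97 and the plus-strand Cga cluster from 5.18 to 6.0.

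Among the 7 members with a promoter window, Prl and Pou1f1 held the letters TATNCAT, the core of the POU1F1 recognition sequence, on either strand. Gh, Ghrhr and Pitx1 had no window and were not searched. RefSeq promoter windows of GRCm38.p6, running from 250 bases before to 50 bases after the annotated start, were given for 7 of the 10 genes, namely Prl, Pomc, Lhb, Tshb, Fshb, Cga and Pou1f1. These genes have 8 windows, of which 2 held the letters, as did 8.84% of all 32851 windows. The stretches of 30 bases around the matches before the start are shown because Prl carries the largest difference of the array and POU1F1 is its known activator. Capitals mark the match, and all are written 5′ to 3′ on the plus strand.
Prl, chr13:27057411-27057440, match from 148 bases before the start: tcttcctgaatATGAATAagaaataaaata
Prl, chr13:27057512-27057541, match from 47 bases before the start: ctgattatataTATTCATgaagatgtcaaa
Pou1f1, chr16:65520444-65520473, match from 57 bases before the start: aaactattaacATGTATAaatggatttcct
A further match in the Pou1f1 window begins 12 bases after the start. In the last stretch printed the match overlaps the letters TATAAA of the TATA box, a core promoter element. The Pou1f1 window holds another copy of these letters 33 bases before the start. These letters were found on either strand in 7 of the 8 windows, at least 1 for each of the 7 genes, and in 13.6% of all windows. The matches describe these letters only, and binding of POU1F1 was not measured.

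The transcription factors and the receptor among the members differed by between 0.12 and 0.30. Pou1f1 (chromosome 16, 65520629 to 65533981, plus strand) had log2 signals of 3.97 and 3.88 in wild-type and of 4.05 and 4.16 in Adar2-/- brain. The groups did not overlap, but the difference was 0.18 (SE 0.11), or 1.13-fold, and the closest arrays of the 2 genotypes were 3.97 and 4.05. Pitx1 (chromosome 13, 55825054 to 55836192, minus strand), a homeobox factor of early pituitary and hindlimb development, had 5.38 and 5.59 in wild-type and 5.69 and 5.87 in Adar2-/- brain, a difference of 0.30 (SE 0.13). Ghrhr (chromosome 6, 55376295 to 55388530, plus strand), the somatotroph receptor for growth hormone releasing hormone, had 6.23 and 6.17 against 6.47 and 6.16. Here the groups overlapped, and only Adar2-/- replicate 1 stood above the rest.

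Pomc (chromosome 12, 3954951 to 3960618, plus strand), the precursor of ACTH, melanocortins and β-endorphin, showed the next largest difference after Gh. Its log2 signals were 5.36 and 5.09 in wild-type and 5.97 and 5.50 in Adar2-/- brain. Both Adar2-/- signals were above both wild-type signals, by 0.14 at the closest. The means were 5.23 ± 0.19 (SD, n = 2) and 5.74 ± 0.33 (SD, n = 2), a difference of 0.51 (SE 0.19) or 1.42-fold.

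Cga encodes the α subunit shared by LH, FSH and TSH, and Lhb, Fshb and Tshb encode the β subunits that give each hormone its identity. The plus-strand Cga cluster (chromosome 4, 34893779 to 34907374) had 5.18 and 5.29 in wild-type and 6.0 and 5.28 in Adar2-/- brain. The mean difference of 0.41 (SE 0.24) came from Adar2-/- replicate 1 alone, since replicate 2 lay between the wild-type signals, and it was 0.045 without replicate 1. The other cluster with the symbol Cga (chromosome 4, 34906124 to 34911481) is annotated on the minus strand, opposite to the gene, shares 1251 bases of its span with the first, and ranged from 2.69 to 3.03.

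The β subunits differed less. Lhb (chromosome 7, 45418353 to 45421854, plus strand) had 5.86 and 5.81 in wild-type and 5.96 and 5.94 in Adar2-/- brain, a difference of 0.12 (SE 0.10). Fshb (chromosome 2, 107056140 to 107059656, minus strand) had 5.15 and 4.96 against 5.04 and 5.10, a difference of 0.015 (SE 0.12). Tshb (chromosome 3, 102777398 to 102782714, minus strand) had 5.0 and 5.01 against 4.69 and 5.34, a difference of 0.01 (SE 0.22). The Adar2-/- arrays of Tshb thus enclosed the wild-type arrays, and Adar2-/- replicate 1, which was highest for Prl, Gh, Pomc and Cga, was the lowest for Tshb.

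Set against Prl array by array, Gh came closest. The order of the arrays for Prl, from low to high, was wild-type replicate 2, wild-type replicate 1, Adar2-/- replicate 2 and Adar2-/- replicate 1. Gh, Pomc and Lhb had the same order, which is 3 of the 10 other clusters, and the order was found in 3.83% of all clusters. Adar2-/- replicate 1 was the highest array in 7 of the 11 member clusters (24.9% of all clusters). Replicate 1 exceeded replicate 2 in 7 of 11 clusters within the Adar2-/- genotype (51.1% of all clusters) and in 8 of 11 within wild type (48.3% of all clusters). These counts follow from how the genes were chosen and are given as a description.

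The likeness to Prl was measured as the root mean square difference between the 4 log2 signals of a cluster and those of Prl, each taken relative to the cluster's own mean over the 4 arrays. A cluster with the same signal on all arrays would have a value of 2.14. Gh had a value of 0.71, and the other 9 member clusters had values between 1.86 for Pomc and 2.16 for Tshb, so that they were about as far from Prl as a flat cluster. On this scale Prl stood at -1.28, -2.84, 2.28 and 1.83 in wild-type replicates 1 and 2 and Adar2-/- replicates 1 and 2, and Gh at -1.27, -1.89, 2.38 and 0.79. Pomc stood at -0.12, -0.39, 0.49 and 0.02.

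**Figure D2:**
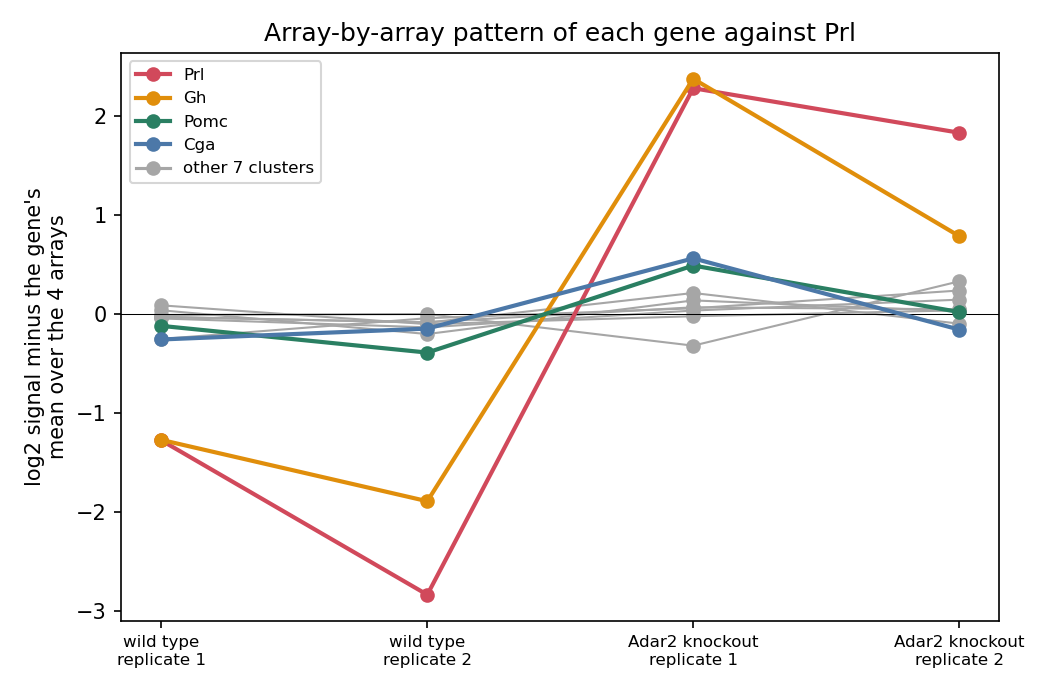
Log2 signal of each of the 11 clusters minus its own mean over the 4 arrays (y axis) on each array (x axis), with Prl, Gh, Pomc and the plus-strand Cga cluster in colour and the other 7 clusters in grey. Gh follows Prl most closely, with deviations of -1.27 and -1.28 in wild-type replicate 1 and of 2.38 and 2.28 in Adar2-/- replicate 1, and the grey lines stay between -0.32 and 0.33.

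Outside the list, the 5 clusters with a single gene symbol that lay nearest to Prl were small RNA and pseudogene loci, none of them a hormone gene. They were Snora16a at a distance of 1.38, the Snora17 cluster on chromosome 2 at 1.43, Mir3096b at 1.45, Pisd-ps3 at 1.46 and the Snora17 cluster on chromosome 4 at 1.51. All were farther from Prl than Gh was, with Gh at 0.71. Of the 5, both Snora17 clusters and Mir3096b carry the code of the array annotation for probes that can cross-hybridize, whereas all 11 member clusters carry the code for unique probes. The member clusters had 15 to 27 probes each, Prl having 15.

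Over the members as a list, all 11 clusters had a higher mean signal in Adar2-/- brain, as did 50.8% of all clusters. After median centring, quantile or cyclic loess normalization of the arrays 9 of 11 were higher, Fshb and Tshb changing sign. The median difference was 0.18, or 0.165 without Prl and Gh, against 0.005 over all clusters. Both Adar2-/- arrays lay above both wild-type arrays in 6 of 11 clusters, which were Prl, Gh, Pomc, Lhb, Pou1f1 and Pitx1, and in 17.7% of all clusters. In the limma fit across all clusters, 0% of them passed an adjusted p of 0.05, and the lowest adjusted p was 0.409. An unadjusted limma p below 0.05 was reached by 5.95% of all clusters, and by 3.64% with the higher mean in Adar2-/- brain. Nothing is read from the members' counts, since the same contrast was used to choose the genes.

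Leaving out Adar2-/- replicate 1 left Prl at 3.89 and Gh at 2.37, or 14.8-fold and 5.17-fold. Pomc was then at 0.275. Leaving out wild-type replicate 2, which had the lowest Prl signal, gave 3.34 for Prl and 2.86 for Gh, and leaving out wild-type replicate 1 gave 4.90 and 3.48. Without Adar2-/- replicate 2 the differences of Prl and Gh were 4.34 and 3.96, and that of Pomc was 0.745. The closest arrays of the 2 genotypes were 3.11 apart for Prl and 2.06 apart for Gh. Leaving out an array therefore could not bring either difference below 2 on the log2 scale.

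The other pituitary transcription factors and receptors read here differed by at most 0.32 on the log2 scale. Hesx1 at 3.90 to 4.17 and Gnrhr at 3.72 to 3.85 lay within the range of the Y-chromosome genes (3.49 to 4.40). There a small difference does not show that a gene was unchanged. Of 16 transcription factors of pituitary development and cell identity, measured by 17 clusters, 11 clusters had a higher and 6 a lower mean in Adar2-/- brain, with a median difference of 0.045, where 50.8% of all clusters were higher. By limma 0 of the 17 had an unadjusted or adjusted p below 0.05, against 5.95% and 0% of all clusters. A share near the background is not a result about the list. Both Adar2-/- arrays lay above both wild-type arrays in 5 of the 17, which were Lhx3, Hesx1, Six6, Pax7 and Foxl2, and below them in 3, against 17.7% and 16.5% of all clusters. Lhx3 also had the array order of Prl. The differences ranged from -0.32 for a Neurod1 cluster to 0.21 for Lhx3. Tbx19, the T-box factor of corticotrophs, had log2 signals of 4.90 and 5.02 in wild-type and of 4.99 and 5.15 in Adar2-/- brain, and Nr5a1 (SF-1), the gonadotroph factor, had 5.90 and 6.16 against 6.09 and 6.06. For Tbx19 and Nr5a1 the genotypes overlapped.

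Receptors through which the hypothalamus and peripheral hormones act on pituitary cells were measured by 9 clusters. Of these, 6 had a higher and 3 a lower mean, the median difference was 0.03, and 0 had an unadjusted or adjusted limma p below 0.05 (5.95% and 0% of all clusters). Both Adar2-/- arrays lay above both wild-type arrays in 0 of the 9 and below them in 2, against 17.7% and 16.5% of all clusters. Gnrhr, the gonadotroph receptor for gonadotropin releasing hormone, had log2 signals of 3.81 and 3.72 in wild-type and of 3.74 and 3.85 in Adar2-/- brain. Drd2, the dopamine receptor that restrains prolactin release and is also abundant in the striatum, had 10.06 and 10.13 against 9.93 and 9.96, a difference of -0.15 (limma p 0.198). Trhr, the thyrotropin releasing hormone receptor, had 6.26 and 6.10 against 6.14 and 6.54. The remaining 6 receptors differed by between -0.16 and 0.19.

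The hypothalamic factors that act on the anterior pituitary were measured by 7 clusters, of which 2 had a higher and 5 a lower mean in Adar2-/- brain, with a median difference of -0.075. By limma 0 of the 7 had an unadjusted or adjusted p below 0.05, near the 5.95% and 0% of all clusters. Ghrh, which drives growth hormone release, had log2 signals of 5.96 and 6.08 in wild-type and of 5.78 and 5.91 in Adar2-/- brain (limma p 0.175). Sst, the inhibitor of growth hormone release, which is also made by cortical interneurons, had 12.03 and 11.96 against 11.89 and 11.95. Th, needed for the dopamine that inhibits lactotrophs, had 9.02 and 9.34 against 9.23 and 8.88. The largest difference of this group was that of Gnrh1, at 5.44 and 5.61 in wild-type and 5.71 and 5.95 in Adar2-/- brain (limma p 0.0629). Other hypothalamic peptide genes, 8 in number and including Oxt, Pmch, Hcrt and Agrp, were higher in 4 and lower in 4 clusters, with differences from -0.16 to 0.15 and 0 clusters with an unadjusted limma p below 0.05, near the 50.8% of all clusters that were higher and the 5.95% with such a p.

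Genes for prohormone processing and secretory granules, which endocrine cells share with neurons, differed by between -0.26 for Pcsk2 and 0.11 for Chgb. Of these 9 clusters 3 were higher and 6 lower, where 50.8% of all clusters were higher, and 0 had an unadjusted limma p below 0.05, near the 5.95% of all clusters. Pcsk1, the convertase that cuts the Pomc product to ACTH, had log2 signals of 8.51 and 8.55 in wild-type and of 8.42 and 8.51 in Adar2-/- brain. The other glycoprotein hormone subunits, Gpha2 and Gphb5, differed by 0.16 and 0.11.

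**Figure D3:**
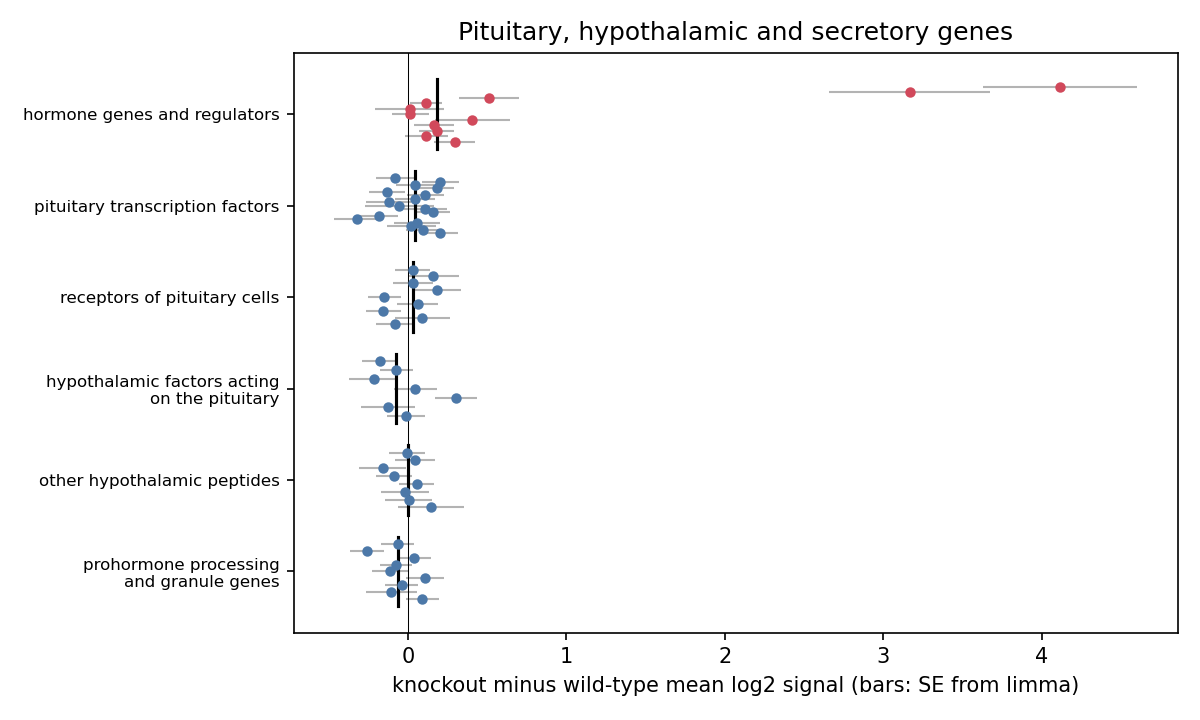
Difference between the Adar2-/- and wild-type mean log2 signals (x axis) of every cluster in the pituitary hormone list (red) and in 5 other lists (blue), with the limma standard error as a horizontal bar and the list median as a vertical line. Prl at 4.12 and Gh at 3.17 stand apart from all other clusters, whose differences lie between -0.32 and 0.51.

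The prolactin family of the mouse also holds many genes that are known from the placenta and decidua, and these lie on chromosome 13 as Prl does. The array has 25 clusters for 23 symbols of this family other than Prl, which were looked up after the values of Prl were known. Their log2 signals ranged from 2.05 to 5.71 on all arrays, and their differences ranged from -0.36 for Prl2b1 to 0.45 for Prl3d1, with a median of 0.07. Unadjusted limma p-values below 0.05 were obtained for Prl3d1 (limma p 0.0159, higher), Prl2b1 (limma p 0.0168, lower) and Prl4a1 (limma p 0.0394, lower), each with an adjusted p of 0.834. These are 3 of 25 clusters, where 5.95% of all clusters had such a p. The Prl3d1 cluster carries the code for probes that can cross-hybridize.

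Markers of other tissues were read on the same arrays. Of 10 salivary gland genes, measured by 12 clusters, some were very high on Adar2-/- replicate 1, the array with the highest signals of Prl and Gh. Bpifa2, a secreted salivary protein, had log2 signals of 5.13 and 5.09 in wild-type and of 12.61 and 5.28 in Adar2-/- replicates 1 and 2. Dcpp1, Smr3a and Amy1 stood at 10.20, 8.47 and 7.70 on Adar2-/- replicate 1 and at no more than 5.98 on any other array. Adar2-/- replicate 1 was the highest array in 6 of the 12 clusters (24.9% of all clusters), and it exceeded Adar2-/- replicate 2 in 7 of 12, near the 51.1% of all clusters. The summed linear signal of the list was 382 and 399 in wild-type and 8230 and 410 in Adar2-/- brain. Both Adar2-/- arrays lay above both wild-type arrays in 5 of the 12 clusters (17.7% of all clusters), which were Amy1, Dcpp2, Prol1, Bpifa2 and a Muc19 cluster, and Amy1, Prol1 and Bpifa2 had the array order of Prl (3.83% of all clusters). On Adar2-/- replicate 2, where the sum was 410 and Amy1 was at 5.60 against 5.25 and 5.22 in wild-type brain, Prl was at 9.66 and Gh at 8.36. Dcpp2 was the salivary gene with an unadjusted limma p below 0.05, at 3.63 and 3.67 against 4.34 and 4.32 (limma p 0.000626, adjusted p 0.829).

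The summed linear signal of 4 olfactory bulb markers was 418 on Adar2-/- replicate 2 against 674 on Adar2-/- replicate 1 and 661 and 716 in wild-type brain. Doc2g and Cdhr1 carried the low sum, with log2 signals of 6.70 and 6.66 on that array, and Eomes and Tbx21 were also lowest there, at 6.91 and 6.53 against 6.93 and 6.64 on the next lowest arrays. Cdhr1 had log2 signals of 7.80 and 7.87 in wild-type and of 7.44 and 6.66 in Adar2-/- brain (limma p 0.0214, adjusted p 0.834). Red cell genes, 7 clusters for the 6 of 8 symbols found on the array, had summed signals of 8100 and 6560 in wild-type and of 5150 and 7240 in Adar2-/- brain, and Alas2 was lower in Adar2-/- brain by limma (difference -0.74, limma p 0.0467, adjusted p 0.834). Choroid plexus genes, 9 clusters, had summed signals of 12000 and 14800 in wild-type and of 13000 and 14700 in Adar2-/- brain. The summed signals of 7 neuron and glia genes, among them Snap25, Mbp and Gfap, lay between 25000 and 26600 on all arrays, and these defining genes of brain were at log2 signals of 9.14 or more. The 4 genes of the Y chromosome read as a check had signals between 3.49 and 4.40. The part of the salivary, olfactory, red cell and choroid plexus differences in the result was not tested.

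**Figure D4:**
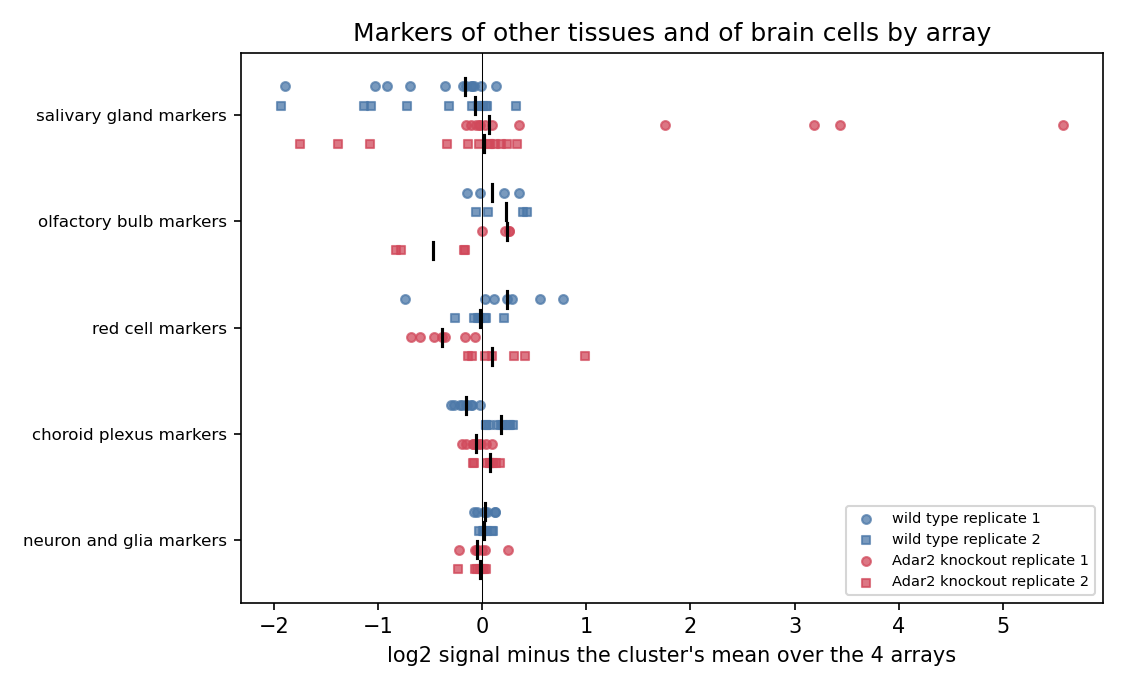
Log2 signal of each marker cluster minus its own mean over the 4 arrays (x axis) for 5 marker lists (y axis), with wild-type arrays in blue, Adar2-/- arrays in red, circles for replicate 1, squares for replicate 2 and the list median as a black tick. In 4 salivary gland clusters, among them Bpifa2 with 12.61 on Adar2-/- replicate 1 and 5.28 on replicate 2, Adar2-/- replicate 1 stands far above the other arrays, and all 4 olfactory bulb markers are lower on Adar2-/- replicate 2 than on Adar2-/- replicate 1.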

How the data were processed

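RNA from the brains of 2 mice per genotype was prepared with the Ambion WT Expression kit and run on Affymetrix arrays at a facility. The authors deposited 1 log2 signal per array for 33793 transcript clusters, given to 2 decimals. Per the labels these are RMA values from Affymetrix Expression Console, with versions not given in the sources used here. The table names no genome build for its coordinates. All 10 genes overlapped their RefSeq span in GRCm38.p6 on the same chromosome. The table also holds the authors' group means, log2 ratios, fold changes and p-values, which were not used, and GO annotation. The precision is limited by 2 arrays per genotype, for which an exact permutation test gives no p below 0.333. Total signal gives no read depth.

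Adar2-/- and wild-type arrays were compared by moderated linear models of genotype (lmFit, then eBayes, two-sided; limma 3.58.1, R 4.3.3), with Benjamini-Hochberg adjustment over all clusters and no filter. The prior SD was 0.125 with 3.79 degrees of freedom. SEs are from this fit. They draw on the spread of all clusters, so they can be smaller or larger than a cluster's own arrays would give. The fit was tested on simulated data. The alternatives left out each array in turn, rescaled the arrays (median centring, quantile, cyclic loess), blocked on replicate number, dropped clusters below the median signal, or used trended, robust or unmoderated variances. P-values measure the spread between these 4 arrays only. Members and lists were chosen with earlier results of these data known. Named genes are the members, list genes with an unadjusted p below 0.05 and the 5 clusters nearest to Prl; the ends of a list's range, well-known list genes and the prolactin family were named after their values were seen. Python 3.11.15 with pandas 2.3.3 and matplotlib 3.10.9 made the tables and plots.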

Additional observations from a re-analysis of the deposited data

How the results depend on the processing

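Prl and Gh kept their direction in all 8 alternatives run for single genes, at 3.34 to 4.90 and 2.37 to 3.96 on the log2 scale, as did Pomc (0.275 to 0.745), the plus-strand Cga cluster (0.045 to 0.765), Pitx1, Pou1f1 and Lhb. Fshb (-0.08 to 0.11), Tshb (-0.315 to 0.335) and Ghrhr (-0.04 to 0.27) changed sign in some of them. The replicate block cannot change a difference in this balanced design. Leaving out an array cannot change its sign where the genotypes do not overlap. For Prl, Gh, Pomc, Pitx1, Pou1f1 and Lhb only the rescalings could therefore have changed the direction. The median difference of the members was between 0.129 and 0.235. Whether wild-type and Adar2-/- arrays of equal number were paired was not known. Their deviations from the group means correlated across clusters at r = 0.0516. A pairing that touches few genes would not show in this value. With the replicate block 0 clusters passed an adjusted p of 0.05 and 1693 an unadjusted one, the median of the members was 0.18, and 1 hypothalamic cluster passed the unadjusted threshold (Gnrh1). The number of clusters past an adjusted p of 0.05 was 0 in all alternatives but the pooled-variance test without shrinkage, with 15, none of them a member all 15 having identical replicate signals within each genotype. The number past an unadjusted p was 989 among clusters above the median signal, where fewer were tested, and 1221 to 1801 with an array left out, the lowest without wild-type replicate 1. Of these the share higher in Adar2-/- brain changed with scaling, from 1230 of 2009 to 801 of 2030 after median centring and 896 of 1840 after quantile normalization. Of the pituitary transcription factors and receptors 1 passed after median centring (Neurod1, lower), 1 with an intensity trend (Neurod1) and 0 to 1 with an array left out (Avpr1b without wild-type replicate 1, Neurod1 without Adar2-/- replicate 2). Of the hypothalamic genes 0 to 1 passed with an array left out (Trh, lower, without Adar2-/- replicate 1). For these counts the cause was not tested. With 1 array left out, the lone array of its genotype was assumed to vary like the other genotype.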
